A study of Saccharomyces cerevisiae with 17 samples.

Results

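The 10 histone genes of Saccharomyces cerevisiae were followed across 3 strains grown in orbit and on the ground: HTA1 and HTA2 for H2A, HTB1 and HTB2 for H2B, HHT1 and HHT2 for H3, HHF1 and HHF2 for H4, the H2A variant gene HTZ1 and the linker histone gene HHO1. They were chosen by gene name, with earlier results of these data known. Of the 10, 9 had an annotated probe set among the 5449 genes tested, with 10 probe sets in all. HTA2 had a pair of probe sets, and HHF2 had none of its own name. The series comprised 17 Affymetrix Yeast Genome 2.0 arrays, which read each gene through a set of short oligonucleotide probes, and every level below is a deposited log2 probe set level. The strains were a FLO1 overexpression strain (2 flight and 3 ground arrays), a strain labelled BY4742::FLO8 (3 and 3) and the wild type (3 and 3). All were derived from BY4742, a laboratory haploid of mating type alpha. FLO1 encodes a lectin-like cell wall protein through which cells flocculate, and FLO8 a transcription factor that activates flocculin genes. The promoter behind FLO1 and the construct behind the FLO8 label are not given in the sources used here. Flight cultures were loaded in saline, received rich medium 5 days after launch, and were grown in orbit for 72 h at 23 °C before filtration and fixation. The ground set was grown later, with the incubator run to the temperature log of the mission, so the time of culture and the growth condition cannot be told apart. The labels do not say whether replicates were separate cultures, so each p-value reflects the spread among these arrays alone, which may be technical, and their number limits the precision.

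Histones are the proteins around which DNA is wound, and H2A, H2B, H3 and H4 together form the nucleosome core. In budding yeast the core genes lie as divergent pairs, each pair reading H2A with H2B or H3 with H4 away from a shared promoter. Their transcripts are made around the G1/S transition and during S phase, under activators such as Spt10 and SBF, and are short-lived outside it. The HIR complex represses the core pairs other than HTA2 and HTB2. Htz1 (H2A.Z) is placed in nucleosomes near promoters by the SWR1 complex, and Hho1 is the yeast linker histone H1. By gene order in the RefSeq R64 annotation, HTA1 (YDR225W) neighbours HTB1 (YDR224C), HTA2 (YBL003C) neighbours HTB2 (YBL002W), HHT1 (YBR010W) neighbours HHF1 (YBR009C) and HHT2 (YNL031C) neighbours HHF2 (YNL030W). Each pair is read from opposite strands. HTZ1 (YOL012C) and HHO1 (YPL127C) had no histone gene beside them. The copies of a core gene are nearly alike, so a probe set can also pick up the other copy.

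FLO1 read 12.52 to 12.57 in flight and 12.54 to 12.90 on the ground for the FLO1 strain, against 7.81 to 8.87 and 8.20 to 8.74 for wild type. The probe set of FLO8 itself read lower in the strain labelled FLO8 (7.58 to 8.31) than in wild type (8.94 to 9.51), which goes against a gain of FLO8 transcript as far as this probe set reads it. FLO11, a flocculin gene and a known Flo8 target, read 11.24 to 13.02 in the strain labelled FLO8, above every wild-type array (at most 9.43). The 4 alpha-cell markers MF(ALPHA)1, MF(ALPHA)2, STE3 and SAG1 read 8.99 to 13.31 on all arrays. The 6 a-cell markers read 5.50 to 11.06 in all, above the 95th percentile of the Schizosaccharomyces pombe probe sets (4.56), which served as the background level. Of these 10 markers AGA2 alone was called in the average over strains, at -0.87 (SE 0.18, limma adjusted p = 0.0206), beside 4.39% of all genes. Array medians lay at 9.88 to 9.94 in flight and 9.84 to 9.90 on the ground. The 3′ minus 5′ difference of 7 control genes, a sign of RNA quality, was 1.22 ± 0.09 in flight (SD, n = 8) and 1.10 ± 0.06 on the ground (n = 9). Arrays lay 0.26 to 0.58 log2 units (root mean square over genes) from their group mean in flight and 0.10 to 0.34 on the ground. As an alternative, 4 flight arrays were left out together: replicates 2 and 3 of the strain labelled FLO8, replicate 1 of the FLO1 strain and replicate 3 of wild type. This left 1 flight array for the strain labelled FLO8 and 1 for the FLO1 strain, and both were assumed to vary like the other groups. The 4 were chosen with results of these data known, and all lay at least 0.35 from their group mean, as did the other FLO1 flight array.

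HTB2, 1 of the 2 genes for H2B, fell in flight, and it was the only histone gene called in the flight difference averaged over the 3 strains. In the FLO1 strain HTB2 read 10.13 and 10.26 in flight, against 11.15, 11.14 and 11.20 on the ground. In the strain labelled FLO8 it read 10.49, 10.95 and 10.57 in flight, against 11.24, 11.19 and 11.02 on the ground. In wild type it read 10.45, 10.64 and 10.65 in flight, against 11.32, 11.55 and 11.13 on the ground. All 8 flight arrays lay below all 9 ground arrays, whatever the strain. That held for 18 of 5449 genes (0.33%), and flight arrays lay below ground arrays within each strain for 40 genes (0.734%), with HTB2 the only histone gene among them. Averaged over strains, HTB2 was lower in flight by a log2 difference of -0.74 (SE 0.09, 95% interval -0.93 to -0.54), or 1.67-fold, with a limma adjusted p of 0.000724. In this comparison 239 genes (4.39%) were called at an adjusted p under 0.05, 113 of them lower (2.07%), and 1 of the 9 histone genes was called. In bulk cultures fewer cells in the phase that makes histone mRNA and less of it per cell cannot be told apart.

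**Figure D1:**
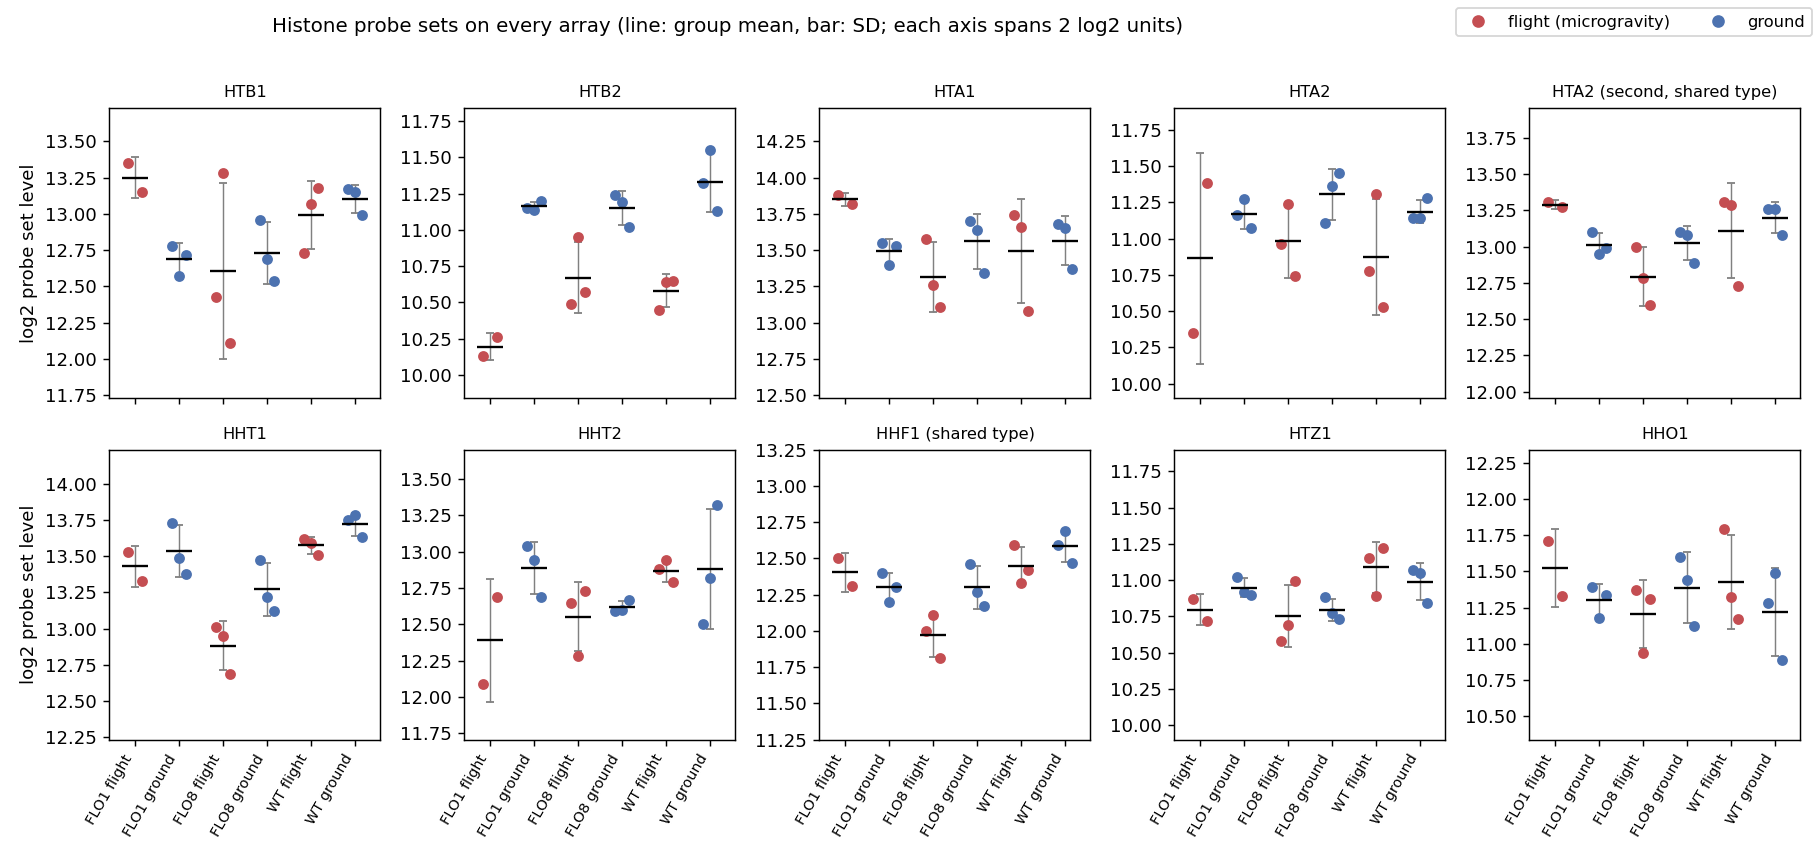
Log2 probe set level of each histone probe set on every array, by group, with each vertical axis spanning 2 log2 units around its own centre. Points are arrays, horizontal lines group means and bars SD (n = 3, or 2 for FLO1 flight); for HTB2 all flight points, at most 10.95, lie below all ground points, at least 11.02.

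Within single strains the fall of HTB2 had the same direction and was not called. The difference was -0.98 in the FLO1 strain (SE 0.17, limma adjusted p = 0.0562), -0.48 in the strain labelled FLO8 (SE 0.15, adjusted p = 0.672) and -0.75 in wild type (SE 0.15, adjusted p = 0.0638). Few genes of any kind passed in these comparisons: 2 (0.0367%) in the FLO1 strain, 0 (0%) in the strain labelled FLO8 and 9 (0.165%) in wild type, and 0 of the 9 histone genes passed in each. At an unadjusted limma p under 0.05 stood 2 of the 9 histone genes in the FLO1 strain, beside 717 of all genes (13.2%). There were 3 of 9 in the strain labelled FLO8, beside 362 of all genes (6.64%), and 1 of 9 in wild type, beside 545 (10%). Without the 4 arrays left out together the wild-type difference was -0.79 and was called (adjusted p = 0.0079), as were 461 genes (8.46%), and the average difference was -0.79 (adjusted p = 0.000519). On leaving out 1 array at a time, HTB2 in wild type was called in 1 of 6 refits, without WT ground replicate 3 (-0.85, limma adjusted p = 0.0436). The other 5 gave no call, with adjusted p up to 0.318. In the FLO1 strain HTB2 was called in 1 of 5 refits and not in the other 4. That refit, without FLO1 microgravity replicate 2 (-1.04), kept 1 flight array of the strain. The share of all genes called in these refits was not counted. The average remained called on leaving out each of the 17 arrays in turn (-0.78 to -0.70). With the 3′ minus 5′ difference as a covariate it was -0.69 and not called (adjusted p = 0.364), and 0 of 5449 genes were called. That difference was also higher in flight than on the ground, and its part in the HTB2 result was not tested further.

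The flight response of HTB2 was not shown to differ between strains. The response in the FLO1 strain minus that in wild type was -0.22 (95% interval -0.70 to 0.26), and that in the strain labelled FLO8 minus that in wild type was 0.27 (-0.18 to 0.73). The response in the strain labelled FLO8 minus that in the FLO1 strain was 0.49 (0.01 to 0.98, limma adjusted p = 0.998, or 0.0448 unadjusted). Against wild type on the ground, HTB2 differed by -0.17 in the FLO1 strain (limma adjusted p = 1) and by -0.18 in the strain labelled FLO8 (adjusted p = 0.999). In flight the FLO1 strain lay below wild type on every array, at -0.39 (SE 0.17, limma adjusted p = 0.597). The same held for 416 of 5449 genes (7.63%).

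**Figure D2:**
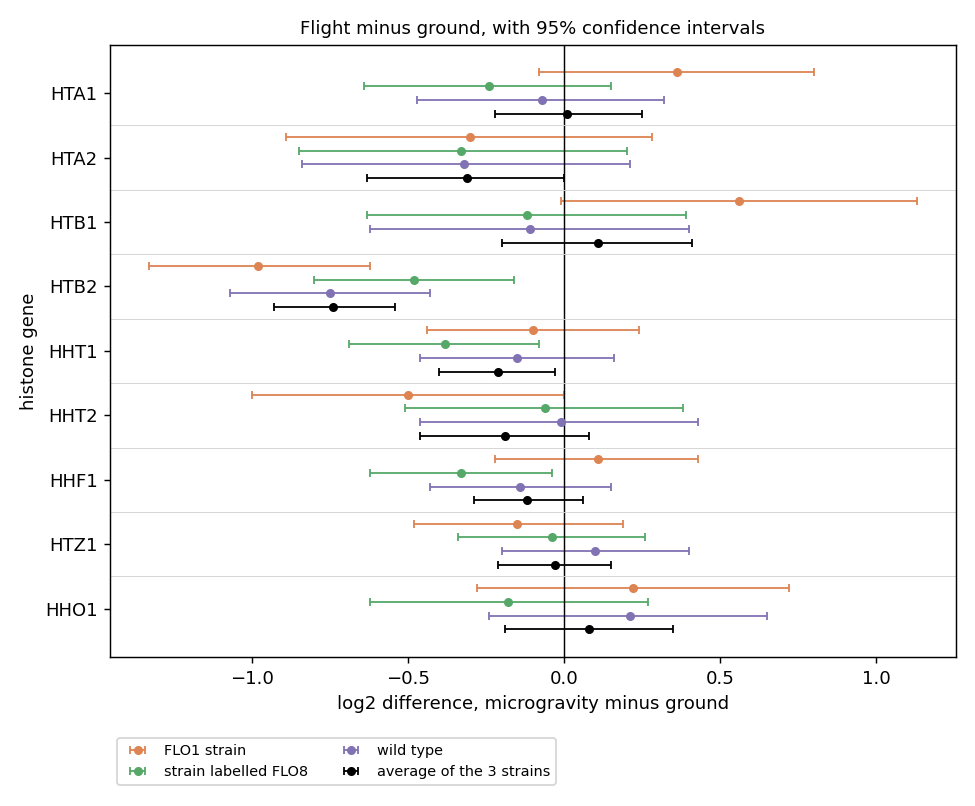
Log2 difference of microgravity minus ground for the 9 measured histone genes in the FLO1 strain, the strain labelled FLO8, wild type and their average, with 95% confidence intervals from limma. The 4 intervals of HTB2 lie left of 0, from -1.33 to -0.16, and of the other 8 genes none was called.

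HTB1, the other H2B gene, was not called in any of the 11 comparisons, and in the FLO1 strain its flight arrays were the higher ones. In the FLO1 strain HTB1 read 13.35 and 13.15 in flight, against 12.78, 12.57 and 12.72 on the ground, so both flight arrays lay above the ground arrays. The difference was 0.56 (SE 0.27, limma adjusted p = 0.391), and in this strain 22.8% of all genes had both flight arrays above the ground arrays. HTB1 read 12.43, 13.28 and 12.11 in flight in the strain labelled FLO8, against 12.96, 12.69 and 12.54 on the ground. Wild-type arrays read 12.73, 13.07 and 13.18 in flight, against 13.17, 13.15 and 12.99 on the ground. In both of these strains the groups overlapped. The response in the FLO1 strain minus that in wild type was 0.67 (SE 0.36, adjusted p = 0.993). The response in the strain labelled FLO8 minus that in the FLO1 strain was -0.68 (SE 0.36, adjusted p = 0.998).

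On the same array, the level of HTB2 minus that of HTB1 averaged lower in flight in each strain. A difference between probe sets carries each set's own brightness, so only its change between groups is read here. HTB2 minus HTB1 was -3.06 ± 0.23 in flight (SD, n = 2) and -1.53 ± 0.10 on the ground (n = 3) in the FLO1 strain. It was -1.94 ± 0.40 in flight and -1.58 ± 0.12 on the ground in the strain labelled FLO8 (n = 3 each), where replicate 3 in flight (-1.54) lay among the ground arrays. In wild type it was -2.41 ± 0.13 in flight and -1.77 ± 0.15 on the ground (n = 3 each). Flight and ground did not overlap in wild type or the FLO1 strain. Over the 17 arrays the levels of HTB1 and HTB2 had a Pearson correlation of -0.02 (Spearman -0.05), and of 0.75 once each array was taken as its deviation from its group mean. These arrays share strain and condition, so the values are a description only.

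HTA1, the H2A gene beside HTB1, showed a like pattern in the FLO1 strain. Flight arrays of the FLO1 strain read 13.88 and 13.82 for HTA1, against 13.55, 13.40 and 13.53 for ground arrays (difference 0.36, SE 0.21, limma adjusted p = 0.483). Both flight arrays lay above the ground arrays, as for 22.8% of genes there, and HTA1 and HTB1 were the 2 histone genes that did so. The strain labelled FLO8 gave 13.58, 13.26 and 13.11 in flight, against 13.70, 13.64 and 13.34 on the ground. Wild type gave 13.74, 13.66 and 13.08 in flight, against 13.68, 13.65 and 13.37 on the ground, again with overlap in both strains. The response in the strain labelled FLO8 minus that in the FLO1 strain was -0.60 (SE 0.28, unadjusted p = 0.0477, adjusted p = 0.998).

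HTA2, the H2A gene beside HTB2, averaged lower in flight in each strain and was not called. Its own probe set read 10.35 and 11.38 in flight in the FLO1 strain, against 11.16, 11.27 and 11.07 on the ground. The level was 10.96, 11.24 and 10.74 in flight in the strain labelled FLO8, against 11.11, 11.36 and 11.45 on the ground. For wild type it was 10.78, 11.31 and 10.53 in flight, against 11.14, 11.14 and 11.28 on the ground. In each strain at least 1 flight array lay among or above the ground arrays. The average difference was -0.31 (SE 0.15, limma adjusted p = 0.231), with -0.30 for the FLO1 strain (adjusted p = 0.671), -0.33 for the strain labelled FLO8 (adjusted p = 0.844) and -0.32 for wild type (adjusted p = 0.778). The FLO1 value rested on its replicate 1: without it the difference was 0.21. Without FLO1 microgravity replicate 2, which kept 1 FLO1 flight array, the average was -0.49 and was called. The share of all genes called in that refit was not counted. With the 3′ minus 5′ covariate the average was 0.00064.

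The second probe set annotated to HTA2 is of the type made to match several related transcripts, and it followed HTA1. Across the 17 arrays its Pearson correlation with HTA1 was 0.93 (Spearman 0.94), and with HTA2's own probe set 0.11 (0.02). Within groups these were 0.98 and 0.25. HTA1 and HTA2's own probe set had a correlation of 0.05 (-0.03). The second probe set read 13.31 and 13.27 in flight, against 13.10, 12.95 and 12.99 on the ground, in the FLO1 strain, the direction of HTA1. All of these values share the arrays' strain, condition and normalization, and no test was made of them.

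**Figure D3:**
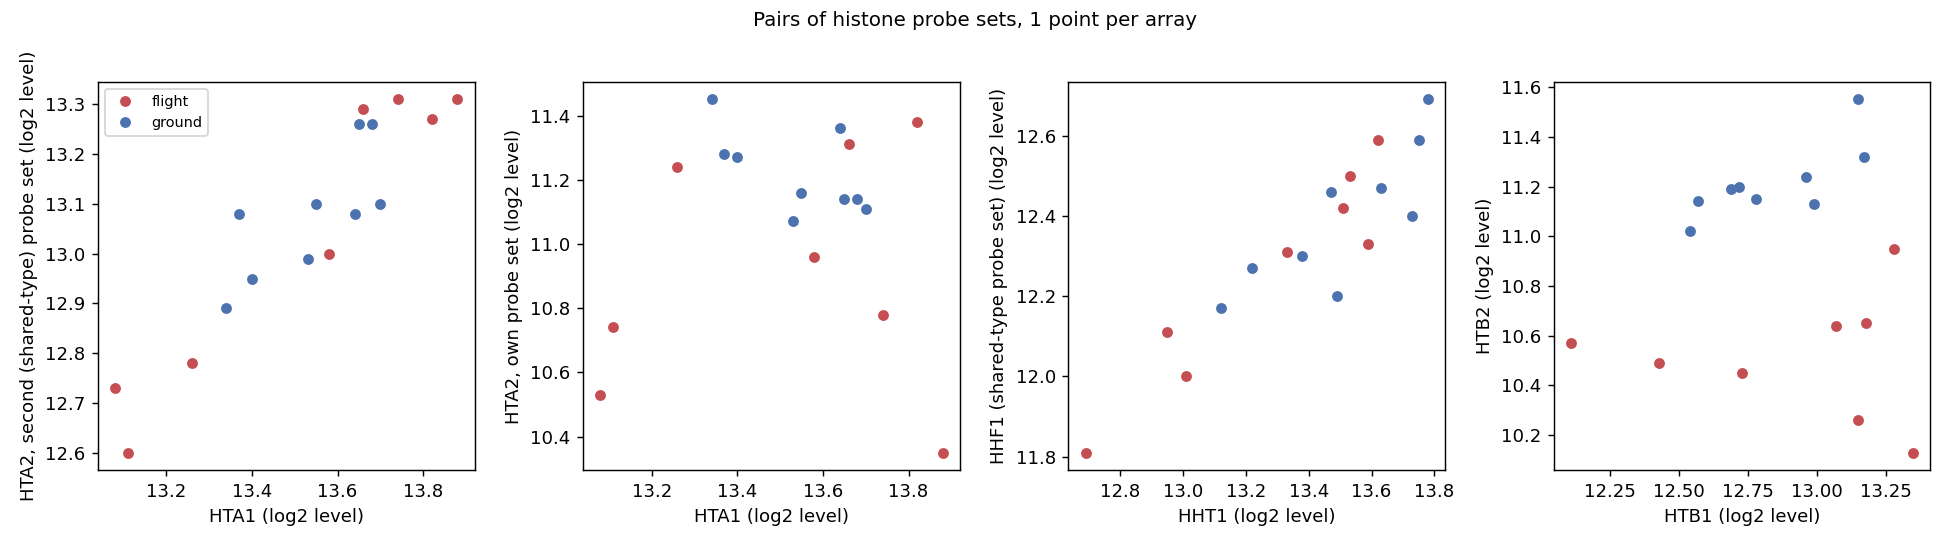
Pairs of histone probe sets plotted against each other as log2 levels, 1 point per array (8 flight, 9 ground). HTA2's second probe set rises along HTA1 (Pearson 0.93) and HHF1 along HHT1 (0.92), HTA2's own probe set does not follow HTA1 (0.05), and for HTB2 against HTB1 the flight points lie below the ground points at every HTB1 level.

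The H3 gene HHT1 and the H4 gene HHF1, a divergent pair, read lower in the strain labelled FLO8 than in wild type under both conditions without being called. In flight HHT1 read 13.01, 12.95 and 12.69 in the strain labelled FLO8, against 13.62, 13.59 and 13.51 in wild type (difference -0.69, SE 0.14, limma adjusted p = 0.0925). On the ground it read 13.47, 13.22 and 13.12 in the strain labelled FLO8, against 13.75, 13.78 and 13.63 in wild type (-0.45, SE 0.14, adjusted p = 0.999). The groups did not overlap in either condition. HHF1 read 12.00, 12.11 and 11.81 in flight in the strain labelled FLO8, against 12.59, 12.33 and 12.42 in wild type (-0.48, SE 0.14, adjusted p = 0.22). On the ground HHF1 read 12.46, 12.27 and 12.17 in the strain labelled FLO8, against 12.59, 12.69 and 12.47 in wild type (-0.28, SE 0.14, adjusted p = 0.999). HHT1 and HHF1 were the 2 histone genes of 9 whose arrays lay below wild type without overlap in both conditions, against 71 of 5449 genes (1.3%). In each condition 2 genes of all kinds were called (0.0367%) and 0 of the 9 histone genes were called. At an unadjusted limma p under 0.05 stood 3 of the 9 histone genes in flight, beside 545 of all genes (10%). On the ground there was 1 of 9, beside 194 of all genes (3.56%). The median difference of the 9 histone genes was -0.32 in flight, beside -0.02 over all genes, and -0.19 on the ground, beside 0.02.

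**Figure D4:**
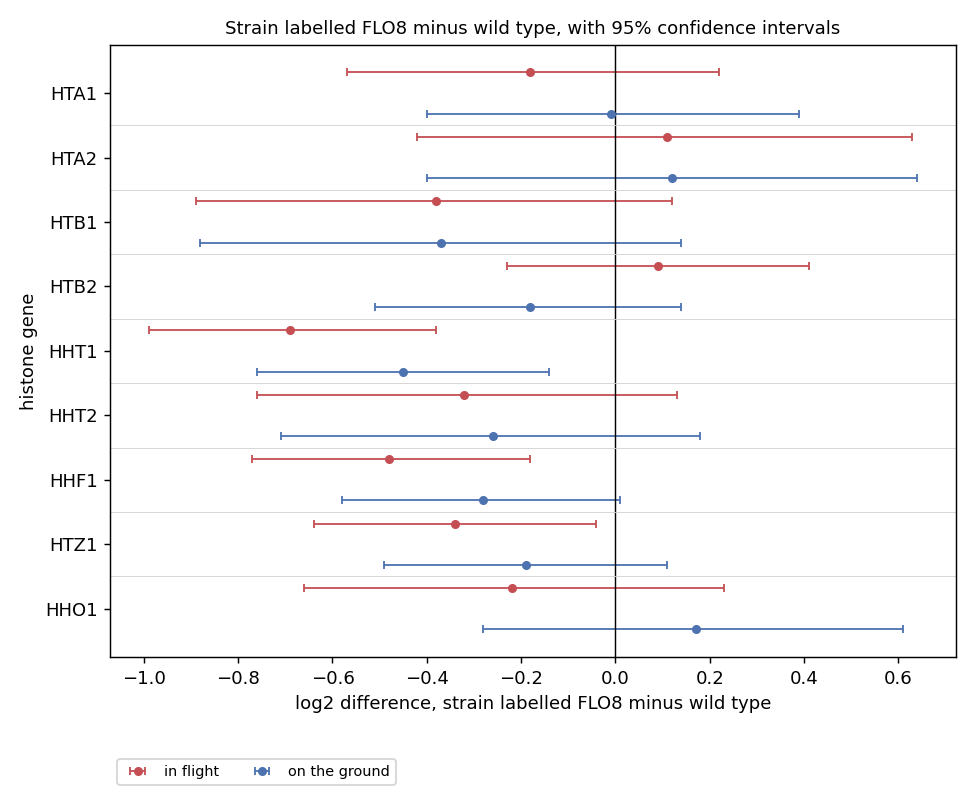
Log2 difference of the strain labelled FLO8 minus wild type for the 9 measured histone genes in flight and on the ground, with 95% confidence intervals from limma. HHT1 lies farthest left in both, at -0.69 in flight and -0.45 on the ground, and none of the genes was called.

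Within the strain labelled FLO8, HHT1 and HHF1 were also lower in flight than on the ground on every array. The differences were -0.38 for HHT1 (SE 0.14, limma adjusted p = 0.732) and -0.33 for HHF1 (SE 0.14, adjusted p = 0.732). With HTB2 they made 3 of 9 histone genes whose flight arrays all lay below the ground arrays in this strain, against 4.46% of all genes. All 9 histone genes had a difference below 0 in this strain, with a median of -0.24, beside 0.01 over all genes. In wild type HHT1 read below its ground arrays on every flight array, at -0.15 (SE 0.14, adjusted p = 0.842), as did HTB2 and 5.58% of all genes. Averaged over strains HHT1 stood at -0.21 (SE 0.09, unadjusted p = 0.027, adjusted p = 0.17) and HHF1 at -0.12 (SE 0.08, adjusted p = 0.418). The flight response of HHT1 in the strain labelled FLO8 minus that in wild type was -0.24 (SE 0.20, adjusted p = 0.998). For HHF1 the response in the strain labelled FLO8 minus that in the FLO1 strain was -0.44 (SE 0.20, unadjusted p = 0.0495, adjusted p = 0.998).

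HHF1's probe set is also of the type that can match several related transcripts, so the level may include HHF2. HHF1 and HHT1 had a Pearson correlation of 0.92 over the 17 arrays (Spearman 0.89), and of 0.79 within groups. HHF1 and HHT2, the H3 gene beside HHF2, had one of 0.11 (0.13). HHF1 in the FLO1 strain on the ground read 12.40, 12.20 and 12.30, below the wild-type ground arrays, at -0.29 (SE 0.14, limma adjusted p = 1). On the ground HTB1 was likewise below wild type without overlap, at -0.41 for the FLO1 strain and -0.37 for the strain labelled FLO8. Among all genes 7.76% and 8.28% lay below wild type without overlap on the ground in these strains. In the FLO1 strain on the ground 2 genes of all kinds (0.0367%) and 0 histone genes were called against wild type. There 0 histone genes had an unadjusted limma p under 0.05, beside 75 of all genes (1.38%).

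HHT2, the other H3 gene, read lower in flight in the FLO1 strain and was not called. It read 12.09 and 12.69 in flight in the FLO1 strain, against 13.04, 12.94 and 12.69 on the ground (difference -0.50, SE 0.23, limma adjusted p = 0.379, or 0.0498 unadjusted). The difference came mostly from replicate 1, and replicate 2 lay at the level of the lowest ground array. HHT2 read 12.65, 12.28 and 12.73 in flight in the strain labelled FLO8, against 12.59, 12.60 and 12.67 on the ground. Wild type read 12.88, 12.94 and 12.79 in flight, against 12.50, 12.82 and 13.32 on the ground. These groups overlapped. The spread of HHT2 was widest for the FLO1 strain in flight (SD 0.42) and for wild type on the ground (SD 0.41). Averaged over strains the difference was -0.19 (SE 0.12, adjusted p = 0.397). In flight HHT2 was below wild type on every array of the FLO1 strain (-0.48, adjusted p = 0.655) and of the strain labelled FLO8 (-0.32, adjusted p = 0.678). Among all genes 7.63% lay below wild type without overlap in flight for the FLO1 strain, and 5.21% for the strain labelled FLO8. HTB2, HHT2 and HTZ1 were the 3 histone genes that did so in the FLO1 strain. Against wild type in flight, 2 genes of all kinds (0.0367%) and 0 of the 9 histone genes were called in the FLO1 strain. At an unadjusted limma p under 0.05 stood 1 of the 9, HTB2, beside 423 of all genes (7.76%).

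HTZ1 and HHO1, the variant and the linker histone, were not called in any of the 11 comparisons. HTZ1 read 10.87 and 10.72 in flight in the FLO1 strain, against 11.02, 10.92 and 10.90 on the ground, as 18.6% of genes did without overlap there. The strain labelled FLO8 read 10.58, 10.69 and 10.99 in flight, against 10.88, 10.77 and 10.73 on the ground. Levels in wild type were 11.15, 10.89 and 11.22 in flight, against 11.07, 11.05 and 10.84 on the ground. Only in the FLO1 strain did flight and ground stand apart. Against wild type HTZ1 in the strain labelled FLO8 was at -0.34 in flight (SE 0.14, limma adjusted p = 0.432) and at -0.19 on the ground (SE 0.14, adjusted p = 0.999), with overlapping arrays.

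HHO1 read 11.71 and 11.33 in flight in the FLO1 strain, against 11.39, 11.18 and 11.34 on the ground. The strain labelled FLO8 read 11.37, 10.94 and 11.31 in flight, against 11.60, 11.44 and 11.12 on the ground (difference -0.18, SE 0.21, limma adjusted p = 0.885). Wild type read 11.79, 11.32 and 11.17 in flight, against 11.28, 11.49 and 10.89 on the ground (0.21, SE 0.21, adjusted p = 0.852). Flight and ground overlapped in every strain. The response in the strain labelled FLO8 minus that in wild type was -0.38 (95% interval -1.02 to 0.25). HHO1 correlated with HTA1 at 0.69 over the 17 arrays (Spearman 0.73) and at 0.70 within groups, and with the own probe set of HTA2 at -0.46 (-0.38).

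The difference in flight response between strains was called for 0 of the 9 histone genes in each of the 3 pairs of strains, and for 0 genes of all kinds (0%). At an unadjusted limma p under 0.05 stood 0 histone genes for the FLO1 strain minus wild type, beside 192 of all genes (3.52%). For the strain labelled FLO8 minus wild type there were also 0, beside 163 (2.99%). For the strain labelled FLO8 minus the FLO1 strain there were 3 of 9, HTB2, HTA1 and HHF1, beside 184 of all genes (3.38%). HTB2 fell less in the strain labelled FLO8 (-0.48) than in the FLO1 strain (-0.98). HTA1 and HHF1 stood below 0 in the strain labelled FLO8 (-0.24 and -0.33) and above 0 in the FLO1 strain (0.36 and 0.11). The mean of the 7 measured core genes was 12.34 ± 0.11 in flight (n = 2) and 12.46 ± 0.07 on the ground (n = 3) in the FLO1 strain. It was 12.14 ± 0.17 in flight and 12.42 ± 0.09 on the ground for the strain labelled FLO8, and 12.40 ± 0.10 in flight and 12.62 ± 0.05 on the ground for wild type (SD, n = 3 each). In each strain the mean was lower in flight. Without HTB2 the mean of the other 6 core genes was 12.70 ± 0.12 in flight and 12.68 ± 0.09 on the ground in the FLO1 strain, so the lower flight mean there rested on HTB2. It was still lower in flight for the strain labelled FLO8 (12.39 ± 0.17 in flight, 12.63 ± 0.08 on the ground) and for wild type (12.71 ± 0.12 in flight, 12.84 ± 0.03 on the ground). The average difference of the single genes had a median of -0.12 over the 9 histone genes, beside 0.03 over all genes tested.

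Genes of the G1/S transition, when histone genes are normally switched on, included several that fell in flight. Of 23 genes of G1/S and DNA replication, a list chosen with earlier results known, 6 fell in the average over strains and 0 rose. Among all genes 239 were called (4.39%), of them 113 lower (2.07%). The median of the 23 was -0.01, beside 0.03 over all genes. CLN1, a G1 cyclin, averaged 7.86 ± 0.11 in flight (SD, n = 2) and 9.16 ± 0.18 on the ground (n = 3) in the FLO1 strain. It averaged 8.55 ± 0.04 in flight and 9.42 ± 0.26 on the ground for the strain labelled FLO8, and 8.10 ± 0.27 in flight and 9.04 ± 0.28 on the ground for wild type (n = 3 each). Its average difference was -1.04 (SE 0.11, limma adjusted p = 0.000327). CLN2, its partner G1 cyclin, fell by 0.68 (-0.68, SE 0.09, adjusted p = 0.00227), CLB6, an S-phase cyclin, by 0.71 (-0.71, adjusted p = 0.0057) and MCD1, a cohesin subunit, by 0.55 (-0.55, adjusted p = 0.0118). These 4 genes are known targets of the G1/S factors SBF or MBF, and all 4 belong to the 40 genes that lay below the ground arrays in each strain. PCL1, a G1 cyclin of the Pho85 kinase, and RNR1, the large subunit of ribonucleotide reductase, stood at -1.27 and -1.08 (adjusted p = 0.0322 for both). The calls of PCL1 and RNR1 were lost on leaving out any 1 of 10 and of 11 of the 17 arrays, with adjusted p of at most 0.0745 and 0.0816, and all 6 calls were lost with the 3′ minus 5′ covariate, under which 0 of 5449 genes were called. The other 17 genes of the list were not called, 8 of them below 0 and 9 above 0. They included CLB5 at 0.07, RFA1 at 0.29, CDC45 at 0.41 and POL1 at -0.04. Targets of SBF and MBF were not tested as a set.

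Of the listed genes that regulate or handle histones 0 were called by limma in the average over strains, beside 239 of all genes (4.39%), and 1178 genes (21.6%) had an unadjusted p under 0.05 there. Of 12 regulators of histone genes 0 were called, 3 had an unadjusted p under 0.05 and 10 had a difference above 0, with a median of 0.18, beside 0.03 over all genes. Among them HIR3 and HIR1, subunits of the repressive HIR complex, stood at 0.34 (adjusted p = 0.128) and 0.30 (adjusted p = 0.231), and SWI6 and MBP1, which form the MBF factor, at 0.54 (adjusted p = 0.183) and 0.28 (adjusted p = 0.231) by limma. Of 12 chaperones and assembly factors 0 were called (1 at an unadjusted p under 0.05, median -0.01), with SPT2, a histone H3 and H4 chaperone, at -0.21 and POB3, a subunit of the chaperone FACT, at 0.38. Of 13 SWR1 complex genes 0 were called (4 at an unadjusted p under 0.05, median 0.08), with SWC3 at 0.44 and ARP6 at 0.28. Of 5 genes of histone mRNA turnover 0 were called (1 at an unadjusted p under 0.05), with PAP2, a poly(A) polymerase of nuclear RNA surveillance, at 0.46 (adjusted p = 0.0886). Of 15 histone modifying enzymes 0 were called (2 at an unadjusted p under 0.05), with the deacetylase gene HDA1 at -0.77 (adjusted p = 0.138). CSE4, the centromeric H3, stood at -0.27 (adjusted p = 0.085) and SCM3, its chaperone, was not called either. With array weights, whose values are approximate, HIR3 (0.41), SPT2 (-0.3), ARP6 (0.31) and CSE4 (-0.3) were called, among 775 genes (14.2%). With quantile normalization PAP2 (0.47) was called, among 201 genes (3.69%). Without the 4 arrays left out together HIR3 (0.36), SPT2 (-0.29), ARP6 (0.37) and CSE4 (-0.35) were called, among 1010 genes (18.5%). HDA1 was then at -0.01 (adjusted p = 0.969). Leaving out 1 array brought a call to HIR3 (0.44) and HDA1 (-1.14) without FLO1 microgravity replicate 2, which kept 1 FLO1 flight array. It brought a call to HIR3 (0.42) without FLO8 microgravity replicate 3 and to SWC3 (0.53) without FLO8 microgravity replicate 1. The share of all genes called in these refits was not counted, so a general rise in calls cannot be told apart.

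In flight 0 of the 12 chaperone and assembly genes were called in the strain labelled FLO8 against wild type, where HHT1 and HHF1 read lower. In this comparison 2 genes of all kinds were called (0.0367%). Of the 12 genes 10 had a difference below 0 and 1 an unadjusted limma p under 0.05, beside 545 of all genes (10%), and the median of the 12 was -0.18, beside -0.02 over all genes. SPT2 was at -0.45 (SE 0.15, limma adjusted p = 0.311), CHZ1, a chaperone of H2A.Z and H2B, at -0.49 (adjusted p = 0.583), VPS75 at 0.41 (adjusted p = 0.614) and NAP1, a chaperone of H2A and H2B, at -0.18 (adjusted p = 0.758). On the ground, where HHT1 and HHF1 also read lower, 6 of the 12 genes lay above 0 and 6 below. Their median there was 0.03, beside 0.02 over all genes. None was called, beside 2 of all genes (0.0367%).

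The genes outside the histone list whose levels followed the mean of the 7 core genes most closely over the 17 arrays were SER3, VPS20, RSA3, CHA1 and NOC2. SER3, an enzyme of serine synthesis, had a Pearson correlation of 0.86 (Spearman 0.76). VPS20, a subunit of the ESCRT-III complex, had one of 0.77 (0.81), RSA3, a ribosome assembly factor, 0.76 (0.55), CHA1, which breaks down serine and threonine, 0.76 (0.64), and NOC2, a ribosome assembly factor, 0.75 (0.58). Without FLO8 microgravity replicate 3 and WT ground replicate 2, the arrays farthest from the median, these were 0.68, 0.65, 0.48, 0.60 and 0.53 over 15 arrays. They were the 5 highest of all genes above background, and the arrays share strain and condition, so they describe these arrays only.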

How the data were processed

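Total RNA was hybridised to Affymetrix Yeast Genome 2.0 arrays. Levels were deposited on the log2 scale, 1 per probe set, and the submitters' processing notes name RMA, affy 1.26.1 and MAS5 without stating their roles; scanner files were not used here, so the background correction was not redone. Values ran from 2.58 to 15.08. Groups came from the sample titles. Of 10928 probe sets 5498 were annotated to S. cerevisiae, with 12 symbols updated; for 47 genes with several, a probe set without the mark for shared transcripts was taken first, then the highest mean, which left 5449 genes. No further normalization was applied.

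A model with 1 mean for each of the 6 groups was fitted to all 17 arrays in limma 3.58.1 (R 4.3.3) with eBayes without trend and 11 residual degrees of freedom. The 11 comparisons were two-sided, with Benjamini-Hochberg adjustment over the 5449 genes in each, and a gene was called at an adjusted p under 0.05. The fit was tested on simulated data. Intervals are 95%. Non-overlap was read from single arrays. Correlations are descriptions without a test. The histone genes and the 7 gene lists were chosen with earlier results of these data known. Named genes were all histone genes, up to 4 members of a list with the lowest p (PCL1 and RNR1 were added after their values were seen), and the 5 genes most correlated with the core mean. Same-numbered arrays did not deviate together (median correlation -0.08 over 40 pairs), so replicate numbers were not taken as pairs. A planned count of promoter motifs was not run, as promoter sequence was not used here. The array's genome build is not given in the sources used here, so no coordinates are printed. Alternatives covered normalization, array weights, RNA quality, filters and left-out arrays.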

Additional observations from a re-analysis of the deposited data

Results flagged for a closer look

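Probe sets for histone genes of another yeast on the same array read above the background level. The array also carries 9 histone probe sets of S. pombe, whose RNA was not in these samples by the labels. Of these, 2 lay above 4.56, the 95th percentile of the annotated S. pombe probe sets, on all 17 arrays: an hta1 probe set at a mean of 6.62 (6.42 to 6.92) and an hht1 probe set at a mean of 5.58 (5.32 to 5.86). Of the 1746 annotated S. pombe probe sets used for that percentile, 43 (2.46%) lay above it on all 17 arrays, and some do so by its construction. What these probe sets bound was not tested. The hta1 probe set averaged 6.62 in flight and 6.62 on the ground, and the hht1 probe set 5.55 in flight and 5.60 on the ground. No group held 4 or more arrays, so single arrays were not tested as outliers within groups.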

How the results depend on the processing

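Across 64 differences of named genes, 1285 recomputed values gave 1226 with the same direction and call, 28 that lost and 27 that gained a call, and 4 that changed sign. Most of the 64 were not called to begin with, so they had no call to lose. The lost calls were those of HTB2, CLN1, CLN2, CLB6, MCD1, PCL1 and RNR1 in the average, mostly of PCL1 and RNR1. HTB2 averaged over strains kept its call in 8 of 9 other settings (-0.83 to -0.74) and on leaving out each of 17 arrays, and was lost with the 3′ minus 5′ covariate (-0.69, adjusted p = 0.364), where 0 histone genes and 0 of all genes were called. Counts of histone genes called otherwise moved as follows. In wild type, flight against ground, 1 (HTB2) was called with median centring, with array weights and without the 4 arrays left out together. In the FLO1 strain 1 (HTB2) was called with median centring, among 3 of all genes (0.0551%), and in the strain labelled FLO8 1 (HTB2) with array weights. On leaving out 1 array the counts ranged from 0 to 1 in wild type (1 without WT ground replicate 3), from 0 to 1 in the FLO1 strain (1 without FLO1 microgravity replicate 2) and from 1 to 2 in the average (2 without FLO1 microgravity replicate 2). For refits without 1 array the share of all genes called was not counted, so these counts have no background beside them. Leaving out FLO1 microgravity replicate 2 kept 1 FLO1 flight array. With array weights 2 were called for the FLO1 strain on the ground against wild type (HTB1, HHF1) and 4 for the strain labelled FLO8 (HTB1, HHT1, HHF1, HTZ1). Array weights also raised the calls of all genes to 501 (9.19%) and 645 (11.8%) there, to 596 in wild type and to 775 in the strain labelled FLO8 and in the average. HTA2 in the FLO1 strain turned to 0.30 with the covariate and to 0.21 without the 4 arrays, and ranged from -0.82 to 0.21 on leaving out 1 array. The HTA2 average was 0.00064 with the covariate. The iterative fit of the array weights stopped before it converged, so values with array weights are approximate. The causes were not tested. Calls of all genes in the average were 133 with the replicate block and 1010 without the 4 arrays, against 239. In wild type they were 15 with median centring, 3 with the replicate block, 1 with the covariate, 0 with only the arrays compared and 461 without the 4 arrays, against 9. The replicate block gave -0.75 for the HTB2 average (adjusted p = 0.0015) and changed no histone call; same-numbered arrays had correlations from -0.512 to 0.64, and 3 of 8 flight arrays correlated best with their own number. Fitting only the arrays compared gave no alternative for the average, which uses all of them. Without the 4 arrays, FLO1 and FLO8 flight each kept 1 array, and a lone array was assumed to vary like the other groups. Few arrays, and signal shared between gene copies, limit every value.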
